A study of Homo sapiens with 36 samples.

Results

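Single-exon protein-coding genes are transcribed without introns, so their mRNAs carry no exon junctions. They were taken here as the genes of the count table with 1 exon interval in its annotation and a protein-coding biotype in the authors' deposited table, outside the mitochondrial genome, with a mean of at least 1 CPM (counts per 1e6 counts of a library) over the 9 input libraries. Symbols that start with H1-, H2A, H2B, H3C or H4C (histones), JUN, IER, SOX, KLF, FZD, HSPA, ZNF or OR were left out, which removed 55 genes that had passed the level limit, while the histone gene H3-5 stayed in. The rule left 207 genes of 60675 in the table, out of 694 single-exon protein-coding genes before the level limit. They are set beside 12897 multi-exon protein-coding genes that passed the same level limit and symbol rule. The lowest genes taken in were DCAF4L1 at 1.07 CPM, ENSG00000288661 at 1.13 CPM and CCDC89 at 1.16 CPM, and the closest genes left out were FIBIN at 0.996 CPM, TAS2R30 at 0.959 CPM and CCDC87 at 0.916 CPM.

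N6-methyladenosine (m6A) is a methyl mark that a nuclear writer complex adds to adenosines of mRNA, and YTHDF1, YTHDF2 and YTHDF3 are cytoplasmic proteins that bind it through their YTH domains. The exon junction complex, left upstream of each junction by splicing, keeps the writer from nearby sequence, which places most m6A in long internal exons and around stop codons. An mRNA without junctions has no such shielded sequence. In RIP (RNA immunoprecipitation) an antibody pulls a protein out of a lysate with its bound RNA, and a YTHDF protein fused to the catalytic domain of ADAR, a deaminase that turns adenosine into inosine, leaves edits near the places it visits.

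All cells were HEK293T, a human embryonic kidney line, and each line carried 1 doxycycline-inducible fusion, YTHDF1-ADAR, YTHDF2-ADAR or YTHDF3-ADAR, switched on with doxycycline at 1 µg/mL for 24 h before lysis, inputs included. From each line came 3 libraries each of YTHDF1 RIP, YTHDF2 RIP, YTHDF3 RIP and input, 36 in all, with 12.5 to 37.5 M counts per library (M, counts in units of 1e6). Nothing in the labels says whether replicates are different cultures, and the p-values therefore rest on the spread among libraries, which may be technical. There was no line without a fusion and no RIP with a control antibody among the samples analysed, and the labels do not say whether a line was 1 clone. The RIP antibodies were directed at the endogenous proteins, and whether they also pulled down the fusions is not stated. In inputs, counts of the YTHDF1 gene were 634 ± 97.4 CPM in YTHDF1-ADAR cells, 87.9 ± 2.03 CPM in YTHDF2-ADAR cells and 94.0 ± 5.10 CPM in YTHDF3-ADAR cells (mean ± SD, n = 3 each). YTHDF2 and YTHDF3 were likewise highest in the inputs of their own lines, at 321 ± 2.26 and 123 ± 14.6 CPM. ADARB1, the gene of an ADAR enzyme, had 521 ± 40.02 CPM in YTHDF1-ADAR inputs, 58.2 ± 1.998 CPM in YTHDF2-ADAR inputs and 2091 ± 56.6 CPM in YTHDF3-ADAR inputs.

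The 6 YTHDF1 RIP libraries made from the YTHDF2-ADAR or YTHDF3-ADAR line were unlike the other 30. They had 12.5 to 16.3 M counts, against 15.9 to 37.5 M in the others. Olfactory receptor genes, which this line is not known to use, summed to 31.9 to 53.3 CPM in those 6 libraries and to 2.76 to 18.5 CPM in the rest, and small nucleolar RNA took 0.854 to 4.54% of counts against 0.0396 to 0.645%. Counts of the YTHDF1 gene averaged 3192 ± 677 CPM in YTHDF1 RIP of YTHDF1-ADAR cells (SD, n = 3), above the input of that line, but 44.5 and 45.7 CPM in YTHDF1 RIP of the other lines, below their inputs. Of the line's own markers, VIM, NEFM and NEFL were present in every library (VIM at 56.8 to 415 CPM), while the blood genes PTPRC, CD3E and HBB stayed at or below 0.160 CPM. Of the fibroblast markers COL1A2 and DCN were near 0 (0 to 0.203 CPM), and COL1A1 was at 8.25 to 51.7 CPM.

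The single-exon genes were shorter than the multi-exon genes, with a median exonic length of 2565 bases (51 to 9540) against 5214 bases, and median input levels of 9.45 CPM against 27.4 CPM. Per kilobase of exon the levels were close, at a median of 5.06 against 5.26 CPM per kb. By length, 27 single-exon genes were under 1 kb, 46 were 1 to 2 kb, 83 were 2 to 4 kb and 51 were over 4 kb. Chromosome X held 18 of them (8.70%, against 3.33% of multi-exon genes), among them IRS4, UBQLN2, SPIN4, ZXDB and MAGEE1. For 90 genes an exon of another annotated gene lay over part of the gene, 36 of them on the same strand, and 117 had no such overlap. Counting ignored strand and kept reads that map to several places, so counts of overlapping genes, and of genes with near-identical copies, cannot be assigned to 1 gene.

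The best-expressed gene was IRS4, an insulin receptor substrate that passes signals from receptor tyrosine kinases, at a mean of 724 CPM in inputs. KCTD12, an auxiliary subunit of GABA-B receptors, followed at 256 CPM. After these came HNRNPA0, which binds AU-rich RNA, at 179.6 CPM, the forkhead transcription factor FOXC1 at 158 CPM and the selenophosphate synthetase SEPHS2 at 150.1 CPM. PCBP1, a poly(rC)-binding protein, had 139.8 CPM and RBM15B, an RNA-binding component of the m6A writer complex, 118 CPM. ATXN7L3B and the ubiquitin ligase adaptor FEM1A were also among the 10 highest, at 118 and 105 CPM. These means are CPM of the whole library, and the values of single libraries given from here on are CPM after TMM scaling, edgeR's correction of library size.

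In YTHDF1-ADAR cells, mRNAs of single-exon genes were enriched in YTHDF1 RIP. For every 1000 counts on multi-exon genes, the YTHDF1 RIP libraries held 26.5, 24.8 and 20.9 counts on single-exon genes, and the inputs held 8.05, 8.61 and 8.40. All 3 RIP libraries lay above all 3 inputs, and this ratio does not depend on how libraries are scaled. In YTHDF2 RIP of the same cells the ratio was 11.1, 10.8 and 11.05, and in YTHDF3 RIP 9.94, 9.77 and 8.74. Gene by gene, 161 of the 207 single-exon genes rose and 21 fell in YTHDF1 RIP against input (edgeR's quasi-likelihood test with Benjamini-Hochberg adjustment over 31849 genes, limit 0.05), where 20.6% of all genes tested rose and 28.8% fell. The median log2 fold change was 1.45 over single-exon genes and -0.28 over all genes tested. In 162 single-exon genes all 3 RIP libraries were above all 3 inputs, and in 18 all were below, where 21.2% and 28.2% of all genes did so. With the 6 libraries that stand apart left out of the fit, 162 rose and 21 fell.

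**Figure D1:**
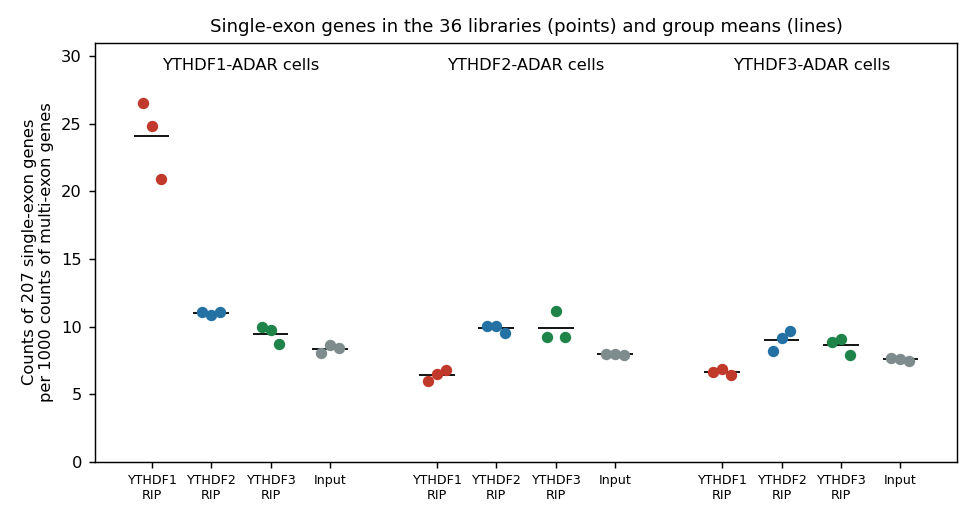
Counts on the 207 single-exon genes for every 1000 counts on multi-exon genes, 1 point per library, with lines for the mean of 3, by cell line and arm. YTHDF1 RIP of YTHDF1-ADAR cells (20.9 to 26.5) lies above every other library, and YTHDF1 RIP of the other lines (5.99 to 6.85) lies below all inputs (7.43 to 8.61).

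Multi-exon genes of like length did not do so. Among genes of 2 to 4 kb, 70 of 83 single-exon genes rose and 4 fell (median log2 1.71), against 809 and 1641 of 3294 multi-exon genes (median -0.52). Over 4 kb, 48 of 51 single-exon genes rose and 1 fell (median 1.57), against 2785 and 3176 of 8447 multi-exon genes (median -0.09). At 1 to 2 kb the counts were 30 up and 8 down of 46 single-exon genes (median 1.12), against 164 and 516 of 911 (median -0.81). Under 1 kb, 13 of 27 rose and 8 fell (median 0.61, against -0.89 for multi-exon genes), but the 9 of these that overlap no other gene had a median of -0.66, with 3 up and 4 down. In each of these length classes the single-exon median was the higher of the pair, and these are descriptions of lists with no test of the difference. Splits by input level and by exon blocks were chosen after the data had been seen. By input level, 74 of 107 at 1 to 10 CPM rose (median 1.39), 77 of 90 at 10 to 100 CPM (median 1.55), and 10 of 10 over 100 CPM (median 1.49), where multi-exon genes had medians of -0.08, -0.27 and -0.53. The 117 single-exon genes without an overlap had 89 up and 14 down, with a median of 1.48.

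**Figure D2:**
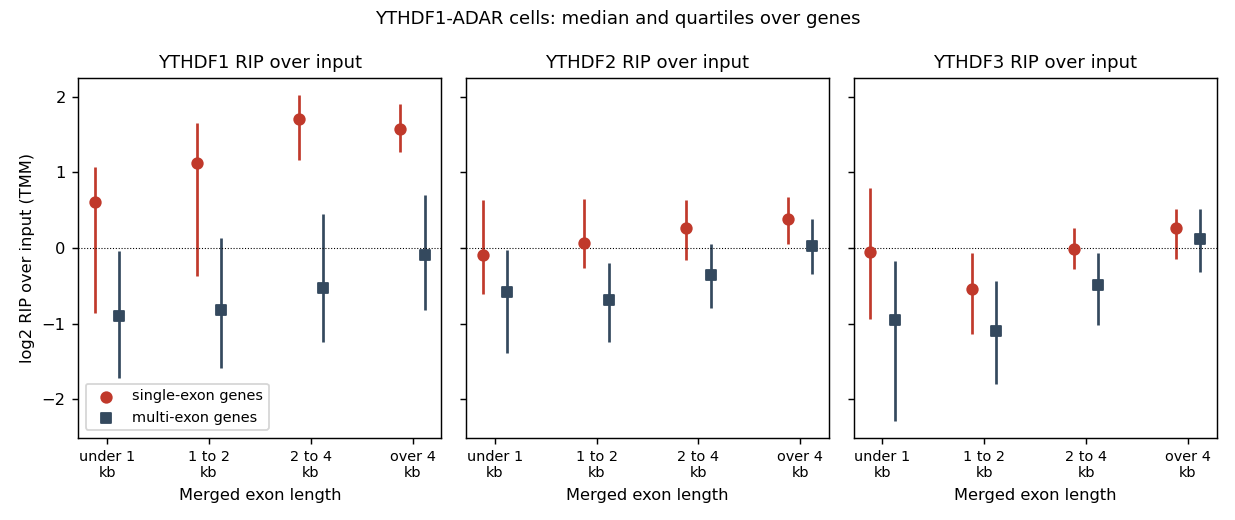
Median log2 fold change of RIP over input (points) with the quartiles (bars), for single-exon and multi-exon genes in 4 classes of exonic length. For YTHDF1 RIP in YTHDF1-ADAR cells the single-exon medians run from 0.61 to 1.71 and the multi-exon medians from -0.89 to -0.09.

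Within the multi-exon genes, enrichment in YTHDF1 RIP of YTHDF1-ADAR cells was lower in genes with more exons. At 2 to 4 kb the median log2 fold change was 0.50 for genes with 2 to 3 separate exon blocks, -0.19 for 4 to 6, -0.66 for 7 to 12 and -0.83 for more than 12, beside 1.71 for single-exon genes of that length. Of the 411 genes with 2 to 3 blocks 210 rose and 101 fell, and of the 670 with more than 12 blocks 64 rose and 431 fell. Over 4 kb the medians were 0.92, 0.29, -0.20 and -0.12 in the same order of classes, beside 1.57, and at 1 to 2 kb they were -0.29, -0.90, -1.01 and -0.76, beside 1.12. The last step of those 2 length classes, between 7 to 12 and more than 12 blocks, went the other way. Another 81 protein-coding genes have several annotated exon entries that merge into 1 block, and their medians were -0.02 at 2 to 4 kb (36 genes) and 1.05 over 4 kb (18 genes). In the other RIPs of these cells the medians spanned less and did not run in 1 order: at 2 to 4 kb, from few to many blocks, they were -0.21, -0.38, -0.41 and -0.29 in YTHDF2 RIP, and -0.37, -0.63, -0.53 and -0.35 in YTHDF3 RIP. Exon blocks were counted over all annotated transcripts of a gene, so a single mRNA may hold fewer.

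**Figure D3:**
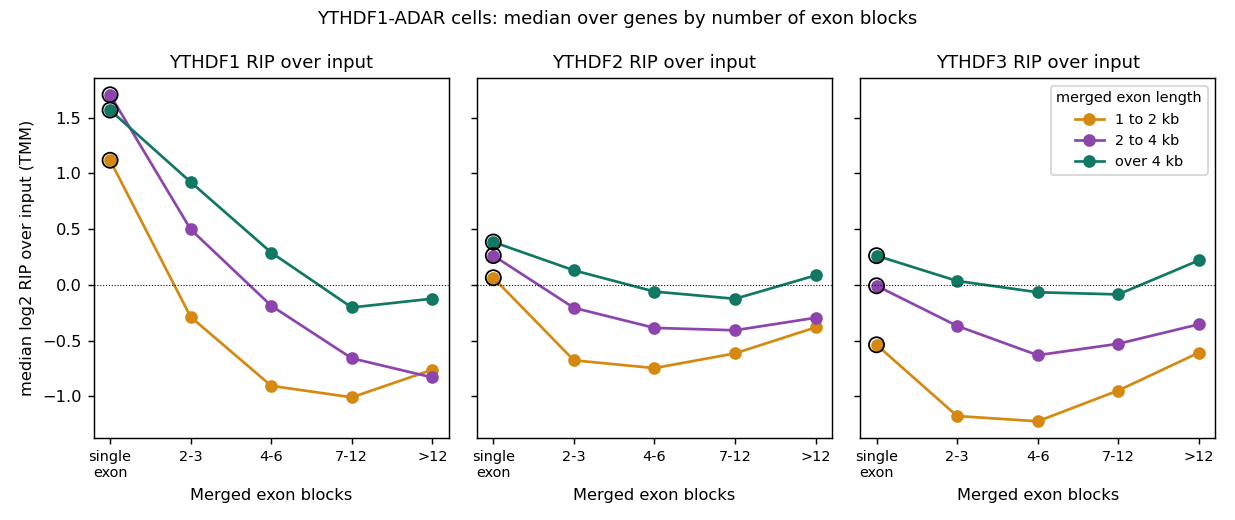
Median log2 fold change in YTHDF1 RIP, YTHDF2 RIP and YTHDF3 RIP over input of YTHDF1-ADAR cells by number of exon blocks, with single-exon genes first, in classes of length. In YTHDF1 RIP at 2 to 4 kb the medians run from 1.71 (single-exon) through 0.50 (2 to 3 blocks) to -0.83 (more than 12 blocks).

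ADO and RAP2B had the smallest p-values among single-exon genes for a difference of YTHDF1 RIP between the lines, and their promoters are shown to set the 2 loci side by side, as the 250 bases upstream of the annotated start in RefSeq (GRCh38.p14), with capitals for CCAAT, for GGGCGG or its other strand CCGCCC, and for TATAAA. ADO, which encodes a thiol dioxygenase that oxidises cysteamine, lies at chr10:62804720-62808479, plus strand (GRCh38, as in the count table), and its promoter window at chr10:62804470-62804719 on the plus strand. RAP2B, a small GTPase of the Ras family, lies at chr3:153162226-153170627, plus strand, and its window at chr3:153161976-153162225 on the plus strand.
ADO: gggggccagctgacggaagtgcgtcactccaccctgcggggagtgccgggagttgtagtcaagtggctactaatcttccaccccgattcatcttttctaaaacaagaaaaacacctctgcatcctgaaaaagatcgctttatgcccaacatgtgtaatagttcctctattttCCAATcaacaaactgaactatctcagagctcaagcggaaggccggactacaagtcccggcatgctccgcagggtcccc
RAP2B: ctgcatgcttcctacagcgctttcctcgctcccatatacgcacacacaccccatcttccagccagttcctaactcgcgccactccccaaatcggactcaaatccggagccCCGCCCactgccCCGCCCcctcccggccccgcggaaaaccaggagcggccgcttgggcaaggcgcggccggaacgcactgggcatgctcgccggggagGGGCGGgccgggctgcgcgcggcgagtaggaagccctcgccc
The ADO window held 1 CCAAT, a box bound by NF-Y, and the RAP2B window held 3 GC boxes, the site of Sp1, on either strand, and neither held TATAAA. Of 27305 RefSeq promoter windows, 33.0% held CCAAT, 42.3% a GC box and 11.1% TATAAA, counting both strands. A match is a run of letters and not a bound site, and of the 207 genes only 140 had a promoter entry, under 80%, so a comparison of promoters between single-exon and multi-exon genes is void and is not given.

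ADO had 154, 143 and 129 CPM in YTHDF1 RIP of YTHDF1-ADAR cells, against 33.1, 43.2 and 46.0 CPM in input, a log2 fold change of 1.80 ± 0.14 (± standard error; adjusted p = 7.21e-13). Its RIP libraries lay well above its inputs, with no overlap. RAP2B had 204, 197 and 182 CPM in YTHDF1 RIP of YTHDF1-ADAR cells, against 47.8, 67.1 and 65.2 CPM in input, a log2 fold change of 1.70 ± 0.13 (adjusted p = 4.51e-13), again with no overlap. ADO shares an exon interval with ENSG00000238280, while RAP2B overlaps no annotated gene.

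The gene with the largest called rise among genes of at least log2 CPM 3 was HPS6, a subunit of the BLOC-2 complex that sorts cargo to lysosome-related organelles. HPS6 had 208, 197 and 171 CPM in YTHDF1 RIP of YTHDF1-ADAR cells, against 28.6, 29.4 and 32.1 CPM in input, a log2 fold change of 2.67 ± 0.28 (adjusted p = 1.90e-09). Every RIP library was far above every input. SDHAF1 had 115, 106 and 119 CPM in YTHDF1 RIP of YTHDF1-ADAR cells, against 18.3, 15.8 and 21.1 CPM in input (2.62 ± 0.23 on the log2 scale), and this gene encodes an assembly factor of mitochondrial succinate dehydrogenase. MAGEE1 had 38.2, 33.3 and 35.5 CPM in YTHDF1 RIP of YTHDF1-ADAR cells, against 5.63, 5.93 and 7.29 CPM in input (2.503 ± 0.20), a gene of the melanoma antigen family on chromosome X. KTI12 had 125, 109 and 109 CPM in YTHDF1 RIP of YTHDF1-ADAR cells, against 20.5, 19.9 and 22.1 CPM in input (2.46 ± 0.21), a gene whose yeast counterpart acts with the Elongator complex in tRNA modification. KTI12 lies within the exons of 3 other annotated genes, TXNDC12 among them. RPP25 had 261, 240.3 and 244 CPM in YTHDF1 RIP of YTHDF1-ADAR cells, against 43.3, 48.0 and 51.1 CPM in input (2.39 ± 0.24), and its product is a subunit of RNase P and RNase MRP. RIMBP3C, RIMBP3 and RIMBP3B rose by 2.56 ± 0.21, 2.55 ± 0.21 and 2.52 ± 0.22 on the log2 scale, but they are near-identical copies on chromosome 22 whose reads can be shared, so they count as 1 observation.

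Well-expressed single-exon genes moved the same way. SEPHS2 had 977, 818 and 735 CPM in YTHDF1 RIP of YTHDF1-ADAR cells, against 159.6, 171 and 207 CPM in input (2.24 ± 0.19 on the log2 scale), with no overlap. KCTD12 had 1028, 879 and 796 CPM in YTHDF1 RIP of YTHDF1-ADAR cells, against 236, 381 and 325 CPM in input (1.52 ± 0.23). IRS4 moved less, at 1255, 1275 and 1623 CPM in YTHDF1 RIP against 770.0, 924 and 799 CPM in input (0.74 ± 0.16), and its groups did not overlap either. CEBPB had 130.2, 143 and 96.6 CPM in YTHDF1 RIP of YTHDF1-ADAR cells, against 29.2, 30.9 and 39.8 CPM in input (1.89 ± 0.21), a leucine zipper transcription factor. PURB had 154, 130.4 and 127 CPM in YTHDF1 RIP of YTHDF1-ADAR cells, against 46.5, 62.6 and 70.04 CPM in input (1.20 ± 0.17), and the product of this gene binds purine-rich nucleic acid. DNAJC30, a mitochondrial co-chaperone, rose by 1.44 ± 0.17, and RBM15B by 2.29 ± 0.19. CEBPB, PURB, DNAJC30 and RBM15B each overlap another annotated gene.

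The genes were also grouped by the first letters of their symbols, so a group can miss genes of its kind. Most groups had more members that rose than fell in YTHDF1 RIP of YTHDF1-ADAR cells. There 77.8% of all single-exon genes rose, and of all genes tested 20.6% rose and 28.8% fell. Of the 16 transcription factors 16 rose and 0 fell (median log2 1.61), among them POU3F2, a POU-domain factor, with 184, 169.6 and 135 CPM in RIP against 33.7, 49.6 and 50.4 CPM in input, and also CEBPA, CEBPB and FOXD2. The 6 ubiquitin ligase adaptors and RING proteins grouped this way rose (median 1.68), with the adaptor KBTBD6 at 268, 244 and 258 CPM against 59.9, 78.9 and 77.5 CPM. So did 4 enzymes of glycan or GPI-anchor synthesis, B3GALT1, B3GALT6, FUT4 and PIGM (median 1.87), with the galactosyltransferase B3GALT6 at 373, 350.3 and 263 CPM against 69.3, 59.8 and 70.7 CPM. Small GTPases and their regulators had 5 up and 0 down of 6 (median 1.71), G-protein-coupled receptors 5 up and 1 down of 6 (median 1.60; the purine receptor P2RY1 at 107, 88.1 and 91.2 CPM against 23.2, 35.0 and 38.2 CPM). Ion channel genes had 3 up of 3 (median 1.62) and melanoma antigen genes 2 of 2 (median 1.71). Genes with little known function had 16 up and 0 down of 19 (median 1.47), and genes of no named group 100 up and 14 down of 133 (median 1.39). The 9 genes with close paralogs or a likely parent gene went the other way, with 3 up and 5 down (median -0.88).

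The single-exon genes of at least log2 CPM 3 that fell furthest with no overlap were copies of spliced genes. EIF5AL1 had 4.52, 1.42 and 3.20 CPM in YTHDF1 RIP of YTHDF1-ADAR cells, against 8.13, 25.7 and 16.1 CPM in input, a log2 fold change of -2.45 ± 0.50 (adjusted p = 0.000161), and it resembles the translation factor gene EIF5A. NUDT4B had 4.68, 4.34 and 5.31 CPM in YTHDF1 RIP of YTHDF1-ADAR cells, against 10.1, 15.4 and 16.2 CPM in input (-1.54 ± 0.20), a copy of the hydrolase gene NUDT4. RAMACL had 4.33, 3.12 and 6.07 CPM in YTHDF1 RIP of YTHDF1-ADAR cells, against 10.3, 13.8 and 13.9 CPM in input (-1.48 ± 0.19), a relative of the cap methyltransferase activator RAMAC. PGAM4 and HNRNPA1L2, relatives of PGAM1 and HNRNPA1, fell by 1.18 ± 0.32 and 0.88 ± 0.26, the second with an adjusted p of 0.0600 without YTHDF1 RIP 2. Reads that fit both a copy and its spliced relative were counted for both, so these values cannot be assigned to the copies alone.

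In the other lines, YTHDF2-ADAR and YTHDF3-ADAR, the direction of the same antibody's RIP was the opposite. In YTHDF2-ADAR cells 24 single-exon genes rose and 151 fell (median log2 -1.07), where 41.8% and 33.4% of all genes did (median 0.20). In YTHDF3-ADAR cells 23 rose and 138 fell (median -0.90), where 40.8% and 32.4% of all genes did (median 0.21). These 6 libraries are the ones that stand apart, and another scaling moved the median of all genes by up to 0.54 there: scaled by upper quartiles, 34 rose and 106 fell in YTHDF2-ADAR cells, and 34 and 90 in YTHDF3-ADAR cells. Many multi-exon genes fell too with TMM. In input classes of 1 to 10, 10 to 100 and over 100 CPM, 37.3, 63.8 and 75.9% of them fell in YTHDF2-ADAR cells. Of single-exon genes 55.1, 91.1 and 100% fell there. In YTHDF3-ADAR cells 34.1, 63.9 and 76.2% of multi-exon and 46.7, 86.7 and 100% of single-exon genes fell. Counts on single-exon genes per 1000 on multi-exon genes were 5.99, 6.52 and 6.82 in YTHDF1 RIP against 7.96, 7.97 and 7.93 in input of YTHDF2-ADAR cells, and 6.62, 6.85 and 6.44 against 7.69, 7.58 and 7.43 in YTHDF3-ADAR cells. At 2 to 4 kb the median log2 fold change was -1.03 for single-exon against -0.98 for multi-exon genes in YTHDF2-ADAR cells, and -0.87 against -0.94 in YTHDF3-ADAR cells. In the shorter classes the single-exon median was the higher, at -1.09 against -1.55 under 1 kb and -1.13 against -1.33 at 1 to 2 kb in YTHDF2-ADAR cells. In YTHDF3-ADAR cells it was -0.99 against -1.51 and -0.89 against -1.30 in those classes. Over 4 kb the single-exon median was the lower, at -0.99 against -0.41 and -0.84 against -0.39 in those 2 lines. The part of depth, small nucleolar RNA and olfactory receptor counts in these values was not tested.

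YTHDF1 RIP against input differed between the 3 lines in 169 of the 207 single-exon genes (edgeR's quasi-likelihood test of the interaction with Benjamini-Hochberg adjustment), where 63.7% of all genes did. Of the 207, 113 (54.6%) rose in YTHDF1-ADAR cells and fell in both of the other lines, as did 1800 multi-exon genes (13.96%) and 7.80% of all genes tested. ADO (adjusted p = 2.71e-16) had 12.01, 14.1 and 17.2 CPM in YTHDF1 RIP against 51.1, 52.1 and 52.6 CPM in input of YTHDF2-ADAR cells, and 15.5, 14.9 and 12.1 CPM against 48.2, 45.0 and 43.8 CPM in YTHDF3-ADAR cells. RAP2B (adjusted p = 4.44e-16) had 22.2, 22.7 and 26.9 CPM against 60.8, 64.8 and 61.9 CPM in YTHDF2-ADAR cells, and 19.5, 20.5 and 16.6 CPM against 50.7, 49.7 and 49.8 CPM in YTHDF3-ADAR cells. In both genes every YTHDF1 RIP library was above its inputs in YTHDF1-ADAR cells and below them in the other lines. The log2 fold changes of ADO were 1.80 ± 0.14, -1.85 ± 0.14 and -1.69 ± 0.14 in the YTHDF1-ADAR, YTHDF2-ADAR and YTHDF3-ADAR lines, and those of RAP2B were 1.70 ± 0.13, -1.38 ± 0.13 and -1.41 ± 0.13. ZXDB, an X-linked zinc finger gene, had 1.79 ± 0.15, -1.54 ± 0.15 and -1.33 ± 0.15, and C6orf120, a gene of little known function that overlaps PHF10, had 1.47 ± 0.15, -1.97 ± 0.16 and -1.71 ± 0.16. FUT4, a fucosyltransferase that makes the Lewis x antigen and overlaps PIWIL4, had 1.94 ± 0.16, -1.44 ± 0.16 and -1.27 ± 0.16. With upper quartiles the falls in YTHDF2-ADAR and then YTHDF3-ADAR cells still passed but were smaller, at -0.84 and -0.87 for RAP2B, -0.995 and -0.79 for ZXDB, and -0.89 and -0.73 for FUT4.

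Averaged over the lines, 51 single-exon genes rose and 82 fell in YTHDF1 RIP (median log2 -0.11), where 44.7% and 32.4% of all genes did (median 0.25). This average adds opposite directions and turns with the scaling: 66 rose and 66 fell with DESeq2's size factors, 96 and 45 with total counts, and 112 and 40 with upper quartiles. With TMM, in input classes of 1 to 10, 10 to 100 and over 100 CPM, 28.04, 51.1 and 60% of single-exon genes fell. Of multi-exon genes 33.7, 61.4 and 74.6% fell there. The shares that rose were 34.6, 14.4 and 10% of single-exon and 38.3, 19.7 and 10.4% of multi-exon genes. The medians were 0.08, -0.24 and -0.35 against 0.06, -0.45 and -0.82. In each class smaller shares of single-exon than of multi-exon genes fell and rose, and the medians at 1 to 10 CPM were close. Single-exon genes that rose on average and had a positive fold change in each line included FOXQ1 and AMIGO3. FOXQ1, a forkhead transcription factor, had 40.8, 34.3 and 28.2 CPM in YTHDF1 RIP against 13.6, 10.9 and 10.6 CPM in input of YTHDF1-ADAR cells, 3.59, 3.86 and 3.58 against 1.36, 1.57 and 1.52 in YTHDF2-ADAR cells and 6.95, 6.99 and 6.11 against 4.07, 3.42 and 4.55 in YTHDF3-ADAR cells. Its log2 fold changes were 1.56 ± 0.21, 1.31 ± 0.26 and 0.74 ± 0.23, with RIP above input in all 3 lines, but the last missed the limit without YTHDF1 RIP 2 or without any 1 of the 3 inputs (adjusted p = 0.0672 to 0.266). AMIGO3, a leucine-rich-repeat membrane protein gene that overlaps GMPPB and RNF123, averaged 1.22 ± 0.14. TIGD1 and LENG9 averaged 0.82 ± 0.10 and 0.79 ± 0.12, and 1.26 and 1.24 with upper quartiles. YY2 averaged 0.56 ± 0.10, ranging from 0.31 to 0.58 with 1 library left out at a time, and 0.90 with total counts. The lowest averages among genes that went the same way in each line were again in EIF5AL1 (-2.46 ± 0.29), NUDT4B (-1.83 ± 0.12) and PGAM4 (-1.64 ± 0.19).

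In YTHDF2 RIP the shift was smaller and had the same direction in each line. Averaged over lines, 96 single-exon genes rose and 30 fell (median log2 0.26), where 17.9% and 21.8% of all genes did (median -0.02), and 119 rose and 18 fell when scaled by total counts. Line by line, 62 rose and 18 fell in YTHDF1-ADAR cells (all genes 8.66% and 15.5%), 58 and 10 in YTHDF2-ADAR cells (10.2% and 10.1%), and 39 and 13 in YTHDF3-ADAR cells (8.98% and 9.93%). With other scalings these became 91 and 12 in YTHDF1-ADAR cells (upper quartiles), 96 and 6 in YTHDF2-ADAR cells (total counts) and 78 and 6 in YTHDF3-ADAR cells (total counts). Single libraries decided the count in 2 lines: in YTHDF2-ADAR cells 38 or 32 genes passed without input 1 or 3, and in YTHDF3-ADAR cells 27, 29 or 22 without YTHDF2 RIP 3, input 1 or input 3. By length, the single-exon medians were 0.02, 0.13, 0.23 and 0.41 from the shortest class to the longest, against -0.42, -0.51, -0.22 and 0.12 for multi-exon genes. Within a library, the single-exon median less the multi-exon median at 2 to 4 kb averaged 0.55, 0.42 and 0.41 in YTHDF2 RIP of the YTHDF1-ADAR, YTHDF2-ADAR and YTHDF3-ADAR lines, against 2.04 in YTHDF1 RIP of YTHDF1-ADAR cells. No single-exon gene passed the test for a difference of YTHDF2 RIP between lines (0 of 207; 0% of all genes; 5 at an unadjusted p under 0.05, 0 with DESeq2).

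HNRNPA0 was among the single-exon genes with the largest rise in YTHDF2 RIP, with 489, 473 and 576 CPM in YTHDF2 RIP against 145, 213 and 209 CPM in input of YTHDF1-ADAR cells, 487, 449.9 and 479 CPM in YTHDF2 RIP against 238, 224 and 245 CPM in input of YTHDF2-ADAR cells and 269.9, 341 and 417 CPM in YTHDF2 RIP against 200.1, 192 and 206 CPM in input of YTHDF3-ADAR cells. RIP and input did not overlap in any line, and the mean log2 fold change was 1.08 ± 0.10 (adjusted p = 2.47e-11). TMEM203, a membrane protein of the endoplasmic reticulum whose gene overlaps TPRN, had 107, 93.7 and 114 CPM in YTHDF2 RIP against 31.6, 35.5 and 46.1 CPM in input of YTHDF1-ADAR cells, 95.0, 89.6 and 88.2 CPM in YTHDF2 RIP against 38.4, 41.6 and 34.8 CPM in input of YTHDF2-ADAR cells and 60.2, 77.6 and 93.2 CPM in YTHDF2 RIP against 43.2, 43.5 and 37.7 CPM in input of YTHDF3-ADAR cells, a mean of 1.20 ± 0.11. It too was above input in every YTHDF2 RIP library. Among genes of at least log2 CPM 3, the largest mean was that of HPS6 (1.22 ± 0.16), followed by TMEM203 and by KLHL9, an adaptor of CUL3 ubiquitin ligases (1.15 ± 0.11). GPR27, an orphan receptor whose gene overlaps EIF4E3, rose by 1.10 ± 0.09, BORCS6, a subunit of the BORC complex that positions lysosomes, by 1.06 ± 0.14, the melanoma antigen gene MAGEF1 by 1.05 ± 0.11 and the deubiquitinase OTUD1 by 1.03 ± 0.09. Averaged over lines, 17.9% of all genes rose and 21.8% fell. By symbol group, 4 of 6 ubiquitin ligase adaptors and RING proteins rose and 0 fell (median 0.53). Of the receptors 4 of 6 rose and 0 fell (0.32), and both melanoma antigen genes rose (0.96). Of the 16 transcription factors 6 rose and 2 fell (0.13), and of the 6 small GTPases and regulators 3 rose and 2 fell (0.08).

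SF3B5, the smallest subunit of the SF3b complex of the spliceosome, lies at chr6:144094884-144095573, minus strand, overlaps no other gene and fell furthest in YTHDF2 RIP. It had 10.5, 11.1 and 3.72 CPM in YTHDF2 RIP against 44.6, 50.8 and 59.3 CPM in input of YTHDF1-ADAR cells, 20.4, 21.9 and 16.5 CPM in YTHDF2 RIP against 72.2, 66.4 and 70.4 CPM in input of YTHDF2-ADAR cells and 16.6, 16.7 and 18.8 CPM in YTHDF2 RIP against 63.0, 69.7 and 71.0 CPM in input of YTHDF3-ADAR cells, a mean log2 fold change of -2.13 ± 0.14 (adjusted p = 4.83e-14). Every YTHDF2 RIP library was below every input of its line. Smaller falls were those of PABIR1, a regulator of protein phosphatase 2A (-0.80 ± 0.11), and SMIM10L1 (-0.79 ± 0.09), and of the copies EIF5AL1, NUDT4B and RAMACL (-0.92 ± 0.27, -0.72 ± 0.11 and -0.51 ± 0.11; RAMACL -0.30 with total counts).

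**Figure D4:**
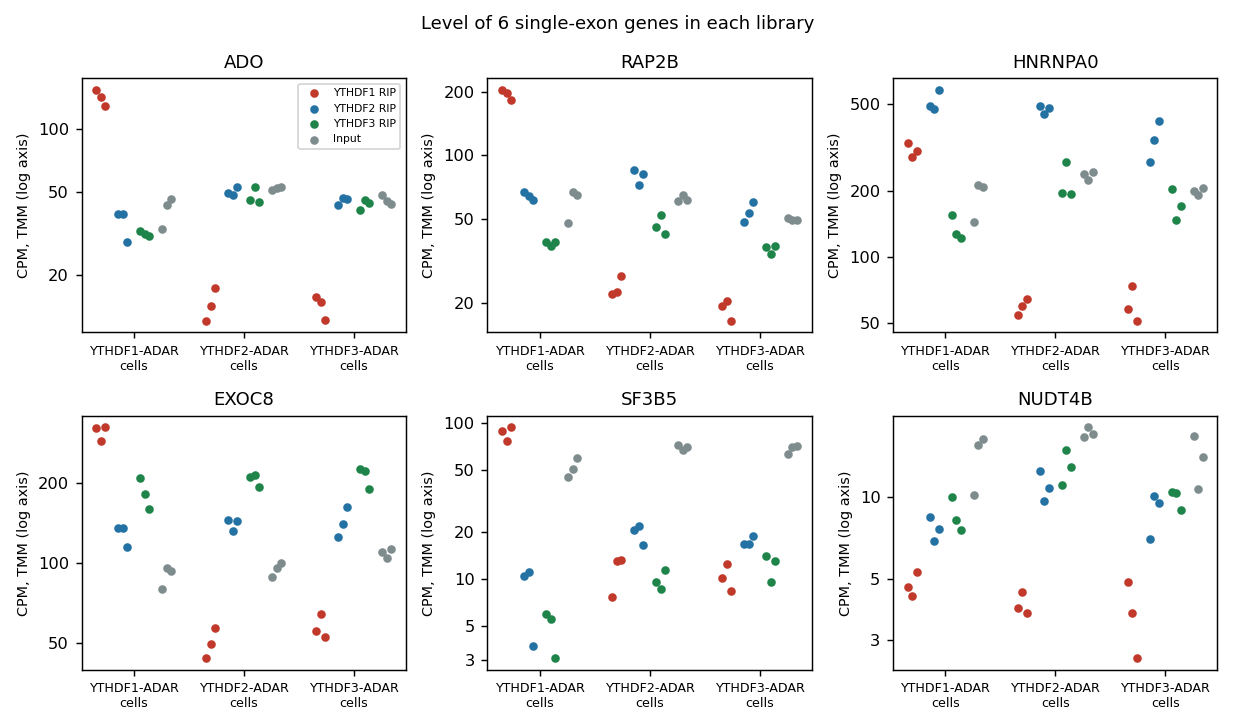
CPM after TMM scaling of ADO, RAP2B, HNRNPA0, EXOC8, SF3B5 and NUDT4B in each library (log axis), 1 point per library, by line and arm. ADO and RAP2B lie above input in YTHDF1 RIP of YTHDF1-ADAR cells and below it in YTHDF1 RIP of the other lines, HNRNPA0 is above input in all YTHDF2 RIPs, EXOC8 in all YTHDF3 RIPs, and SF3B5 is below input in all YTHDF2 and YTHDF3 RIPs.

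In YTHDF3 RIP the single-exon genes moved in both directions, 62 up and 50 down on average over lines (median log2 0.06), where 21.7% and 26.1% of all genes did (median -0.01). The split depends on the scaling: 107 rose and 32 fell with total counts, and 105 and 33 with upper quartiles. In input classes of 1 to 10, 10 to 100 and over 100 CPM, 35.5, 23.3 and 30% of single-exon genes rose with TMM. Of multi-exon genes 25.3, 34.8 and 42.8% rose there. The shares that fell were 20.6, 28.9 and 20% of single-exon and 32.4, 39.8 and 35.5% of multi-exon genes. The medians were 0.16, -0.06 and 0.10 against -0.04, -0.04 and 0.09. Line by line, 34 rose and 41 fell in YTHDF1-ADAR cells (all genes 11.5% and 20.1%), 40 and 24 in YTHDF2-ADAR cells (15.2% and 16.9%), and 34 and 26 in YTHDF3-ADAR cells (13.5% and 16.1%). In YTHDF1-ADAR cells, 24 to 50 rose and 20 to 43 fell with 1 library left out. The number that fell was 20, 26 and 22 without YTHDF3 RIP 2, YTHDF3 RIP 3 and input 3. With total counts the counts in the 3 lines became 60 and 24, 79 and 16, and 62 and 18. By length, the single-exon medians were -0.16 under 1 kb, -0.37 at 1 to 2 kb, 0.13 at 2 to 4 kb and 0.28 over 4 kb, against -0.92, -1.02, -0.43 and 0.19 for multi-exon genes. Within a library, the single-exon less the multi-exon median averaged 0.44, 0.54 and 0.42 at 2 to 4 kb in the YTHDF1-ADAR, YTHDF2-ADAR and YTHDF3-ADAR lines, and 0.09, 0.14 and 0.01 over 4 kb. YTHDF3 RIP 2 lifted the averages of YTHDF2-ADAR cells, whose libraries had 0.41, 0.82 and 0.41 at 2 to 4 kb. Over 4 kb those libraries had 0.09, 0.37 and -0.04, and those of YTHDF3-ADAR cells 0.13, -0.01 and -0.10. No single-exon gene passed the test for a difference of YTHDF3 RIP between lines (0 of 207; 0.00628% of all genes; 11 at an unadjusted p under 0.05, 0 with DESeq2). By symbol group, 3 of 6 ubiquitin ligase adaptors and RING proteins rose and 0 fell (median 0.41). Of the receptors 3 of 6 rose and 0 fell (0.26). Of the transcription factors 3 of 16 rose and 2 fell (0.02), and 4 of the 9 genes with close paralogs fell and 0 rose (-0.52).

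EXOC8, a subunit of the exocyst that tethers secretory vesicles and whose gene overlaps SPRTN, had 210.1, 183 and 159.8 CPM in YTHDF3 RIP against 80.0, 96.1 and 93.5 CPM in input of YTHDF1-ADAR cells, 211, 215 and 195 CPM in YTHDF3 RIP against 89.2, 95.8 and 100.3 CPM in input of YTHDF2-ADAR cells and 227, 223 and 191 CPM in YTHDF3 RIP against 110.3, 104 and 113 CPM in input of YTHDF3-ADAR cells. YTHDF3 RIP was above input in every line with no overlap, and the mean log2 fold change was 1.04 ± 0.08 (adjusted p = 4.46e-14). UBQLN2, a shuttle factor that brings ubiquitinated proteins to the proteasome, had 106, 111 and 123 CPM in YTHDF3 RIP against 34.5, 52.9 and 51.7 CPM in input of YTHDF1-ADAR cells, 154, 95.9 and 158 CPM in YTHDF3 RIP against 62.0, 68.3 and 73.5 CPM in input of YTHDF2-ADAR cells and 96.5, 88.2 and 77.6 CPM in YTHDF3 RIP against 42.9, 42.5 and 48.7 CPM in input of YTHDF3-ADAR cells, a mean of 1.08 ± 0.11. SPIN4, a reader of histone marks in the spindlin family, rose by 1.13 ± 0.10, and IRS4 by 1.01 ± 0.10. The 3 RIP libraries of UBQLN2, SPIN4 and IRS4 were above the inputs in each line too. ZXDB, the transcription factor gene YY2 and TSPYL4 rose by 0.80 ± 0.08, 0.80 ± 0.10 and 0.80 ± 0.08. CDR1 had the largest mean, 1.71 ± 0.33, with 59.3, 72.0 and 83.5 CPM in YTHDF3 RIP against 13.8, 21.8 and 29.9 CPM in input of YTHDF1-ADAR cells, 209, 59.8 and 286 against 78.3, 71.8 and 84.9 in YTHDF2-ADAR cells and 99.7, 155 and 332 against 41.9, 33.0 and 55.2 in YTHDF3-ADAR cells. Its replicates spread widely, RIP and input overlapped in YTHDF2-ADAR cells, and an exon of LINC00632 lies over it, so without strand these reads cannot be assigned to CDR1.

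SF3B5 fell furthest here among genes of at least log2 CPM 3, with 5.93, 5.51 and 3.09 CPM in YTHDF3 RIP against 44.6, 50.8 and 59.3 CPM in input of YTHDF1-ADAR cells, 9.53, 8.63 and 11.3 against 72.2, 66.4 and 70.4 in YTHDF2-ADAR cells and 13.95, 9.49 and 13.1 against 63.0, 69.7 and 71.0 in YTHDF3-ADAR cells. The mean log2 fold change was -2.90 ± 0.15 (adjusted p = 1.03e-17), and no RIP library reached an input. Below that level, MTRNR2L8 and MTRNR2L12, nuclear copies of a stretch of mitochondrial 16S ribosomal RNA, fell by 3.80 ± 0.81 and 3.60 ± 0.81 in YTHDF3 RIP and by 2.08 ± 0.70 and 1.94 ± 0.71 in YTHDF2 RIP, and reads of the mitochondrial gene can be counted for them. TBCC, a tubulin folding cofactor, fell by 0.95 ± 0.10, EID2 by 0.96 ± 0.10 and NCBP2AS2 by 0.96 ± 0.14. The copies EIF5AL1, RAMACL and PGAM4 fell by 2.24 ± 0.28, 1.46 ± 0.11 and 1.12 ± 0.18.

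The RIPs of YTHDF1-ADAR cells were also set against one another directly. Of the single-exon genes 150 were higher and 14 lower in YTHDF1 RIP than in YTHDF2 RIP (median log2 1.23; all genes 20.3% and 18.8%, median -0.13). Against YTHDF3 RIP, 156 were higher and 12 lower in YTHDF1 RIP (median 1.44; all genes 22.4% and 18.7%, median 0.07). SF3B5 differed most among genes of at least log2 CPM 3, with 88.0, 75.9 and 93.5 CPM in YTHDF1 RIP, 10.5, 11.1 and 3.72 CPM in YTHDF2 RIP and 5.93, 5.51 and 3.09 CPM in YTHDF3 RIP, against 44.6, 50.8 and 59.3 CPM in input. YTHDF1 RIP exceeded YTHDF2 RIP by 3.34 ± 0.26 and YTHDF3 RIP by 4.14 ± 0.27 on the log2 scale (adjusted p = 6.69e-12 and 8.70e-14), and was above input by 0.73 ± 0.24, a difference that missed the limit without input 1 (adjusted p = 0.0648). HNRNPA0 was lower in YTHDF1 RIP than in YTHDF2 RIP, by a log2 fold change of -0.74 ± 0.17, and SPIN4 was lower in YTHDF1 RIP than in YTHDF3 RIP (-0.49 ± 0.17; adjusted p = 0.0951 without YTHDF3 RIP 3).

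YTHDF2 RIP and YTHDF3 RIP differed less: 61 single-exon genes were higher and 18 lower in YTHDF2 RIP in YTHDF1-ADAR cells (median 0.31; all genes 10.7% and 8.51%), and 89 and 31 on average over lines (median 0.22; all genes 19.7% and 17%, median 0.01; 72 and 42 with upper quartiles). In YTHDF1-ADAR cells 51 passed without YTHDF2 RIP 1 and 46 without YTHDF3 RIP 3, of 79 in all. HNRNPA0 had 489, 473 and 576 CPM in YTHDF2 RIP against 155, 128 and 123 CPM in YTHDF3 RIP of YTHDF1-ADAR cells, 487, 449.9 and 479 against 197, 269.5 and 194 in YTHDF2-ADAR cells and 269.9, 341 and 417 against 205, 148 and 172 in YTHDF3-ADAR cells. YTHDF2 RIP was the higher in each line, by 1.33 ± 0.10 on average (adjusted p = 2.66e-13). BORCS6 and CCDC85B were also higher in YTHDF2 RIP (1.44 ± 0.14 and 1.42 ± 0.20). In the other direction, UBQLN2 had 45.7, 46.5 and 23.7 CPM in YTHDF2 RIP against 106, 111 and 123 CPM in YTHDF3 RIP of YTHDF1-ADAR cells, and averaged -1.23 ± 0.11 over lines. PABIR1, SPIN4 and IRS4 averaged -1.34 ± 0.11, -0.98 ± 0.10 and -0.79 ± 0.09.

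The inputs of the 3 lines were also compared, which sets the lines side by side before any RIP. Inputs of YTHDF1-ADAR cells had 19 higher and 16 lower than those of YTHDF2-ADAR cells (all genes 13.3% and 4.30%), and 13 higher and 11 lower than those of YTHDF3-ADAR cells (11.3% and 5.10%), and inputs of YTHDF2-ADAR cells had 6 higher and 9 lower than those of YTHDF3-ADAR cells (1.27% and 2.15%). The first split was 18 and 27 with DESeq2's size factors, 24 and 8 with total counts and 21 and 9 with upper quartiles. Single inputs decide these counts: 14, 61 and 19 genes passed in the first comparison without YTHDF1-ADAR input 1, YTHDF1-ADAR input 3 and YTHDF2-ADAR input 2. In the second, 7 passed without YTHDF1-ADAR input 1 and 10, 10 and 14 without YTHDF3-ADAR inputs 1, 2 and 3, and in the third 9 passed without YTHDF2-ADAR input 1 or 2 or without any 1 of the YTHDF3-ADAR inputs. Among genes of at least log2 CPM 3, FOXQ1 differed most between YTHDF1-ADAR inputs and the others, with 13.6, 10.9 and 10.6 CPM in YTHDF1-ADAR inputs, 1.36, 1.57 and 1.52 CPM in YTHDF2-ADAR inputs and 4.07, 3.42 and 4.55 CPM in YTHDF3-ADAR inputs, and none of the 3 groups overlapped. YTHDF1-ADAR exceeded YTHDF2-ADAR inputs by 2.98 ± 0.24 and YTHDF3-ADAR inputs by 1.55 ± 0.22 on the log2 scale (adjusted p = 9.79e-11 and 1.39e-05). Below that level, the near-identical elongin A copies ELOA3P, ELOA3BP and ELOA3DP, which can share reads, were higher in YTHDF1-ADAR inputs by 3.06 ± 0.85, 3.01 ± 0.85 and 2.77 ± 0.89 against YTHDF2-ADAR inputs. CSTF2T, a testis-enriched form of a cleavage stimulation factor subunit, had 32.0, 45.3 and 37.8 CPM in YTHDF1-ADAR inputs, 20.3, 20.03 and 19.3 CPM in YTHDF2-ADAR inputs and 47.9, 51.1 and 45.1 CPM in YTHDF3-ADAR inputs, lowest in YTHDF2-ADAR cells. INSM1, a zinc finger factor of neuroendocrine cells, was lower in YTHDF1-ADAR inputs than in both others (-0.91 ± 0.18 and -1.03 ± 0.18), as was KLHL9 (-0.95 ± 0.19 and -0.73 ± 0.19, the second with an adjusted p of 0.0960 without YTHDF1-ADAR input 1). In bulk RNA, fewer cells with an mRNA and less of it per cell cannot be told apart.

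Editing by the fusions is given per gene in the authors' deposited tables, with libraries of an arm pooled, so these values have no replicate error. In the authors' deposited table of YTHDF1-ADAR cells, 129 of 183 single-exon genes with an unambiguous symbol had edited sites (70.5%), against 58.2% of multi-exon genes. Edited single-exon genes had a median of 19 sites, or 5.79 per kb of exon, against 6 sites or 1.14 per kb in multi-exon genes of the authors' deposited table. At 2 to 4 kb the authors' deposited table held 72.5% of single-exon against 50.6% of multi-exon genes, with medians of 20 against 4 sites, and over 4 kb 78.4% against 63.4%, with 25.5 against 7 sites. Whether sites lie in exons is not stated, so the rate per kb of exon takes all of them to be exonic. Sites are given as a pooled number per gene, and the part of read coverage in that number was not tested. The level of editing, 100 times the score over the number of sites, could be read for 121 single-exon genes of the authors' deposited table. Its median was 5.58% in YTHDF1 RIP, 5.41% in YTHDF2 RIP, 5.13% in YTHDF3 RIP and 3.88% in input, and for multi-exon genes of the authors' deposited table the medians were 3.96, 3.67, 3.40 and 2.701% in the same order. The authors' deposited natural log odds ratio was above 0 in 113, 116 and 108 of the 121 genes for YTHDF1 RIP, YTHDF2 RIP and YTHDF3 RIP over the same input (93.4, 95.9 and 89.3%). The authors' adjusted p in the authors' deposited table was under 0.05 in 14, 3 and 1 (11.6, 2.48 and 0.826%). Of 6482 multi-exon genes in the authors' deposited table, the ratio was above 0 in 5555, 5242 and 5022 in the same order of RIPs (85.7, 80.9 and 77.5%). Their adjusted p in the authors' deposited table was under 0.05 in 579, 117 and 81 (8.93, 1.805 and 1.25%).

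RBM15B had the most sites in the authors' deposited table of YTHDF1-ADAR cells, 205, edited at 5.65% in YTHDF1 RIP, 5.98% in YTHDF2 RIP, 5.82% in YTHDF3 RIP and 4.83% in input, and its gene overlaps DCAF1. For RBM15B the authors' adjusted p in the authors' deposited table was 0.665, 0.619 and 0.764 in these RIPs over input. FEM1A, KCTD12, B3GALT6 and RNF26, a RING-type ubiquitin ligase, followed with 140, 125, 117 and 109 sites in the authors' deposited table. In IRS4, the authors' deposited table listed 31 sites at 6.03% in YTHDF1 RIP against 3.76% in input, with the authors' adjusted p at 0.00918. The tables of the other lines held fewer genes of both kinds: 25 single-exon genes (13.7%, against 17.5% of multi-exon genes) in the authors' deposited table of YTHDF2-ADAR cells, and 41 (22.4%, against 21.7%) in that of YTHDF3-ADAR cells. EXOC8 had 7 sites in YTHDF2-ADAR cells and 14 in YTHDF3-ADAR cells by the authors' deposited tables. The authors' deposited log odds ratio over input is given next for YTHDF1, YTHDF2 and YTHDF3 RIP, in that order. In YTHDF2-ADAR cells it was above 0 in 6, 7 and 9 of 13 single-exon genes with a level (46.2, 53.8 and 69.2%). In YTHDF3-ADAR cells it was above 0 in 7, 9 and 12 of 18 (38.9, 50 and 66.7%). The multi-exon shares in the authors' deposited tables were 50.2, 48.9 and 59.9%, and then 45.6, 47.5 and 58.6%. ADARB1 counts in inputs were 521, 58.2 and 2091 CPM in the YTHDF1-ADAR, YTHDF2-ADAR and YTHDF3-ADAR lines, and their part in the number of edited genes was not tested.

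**Figure D5:**
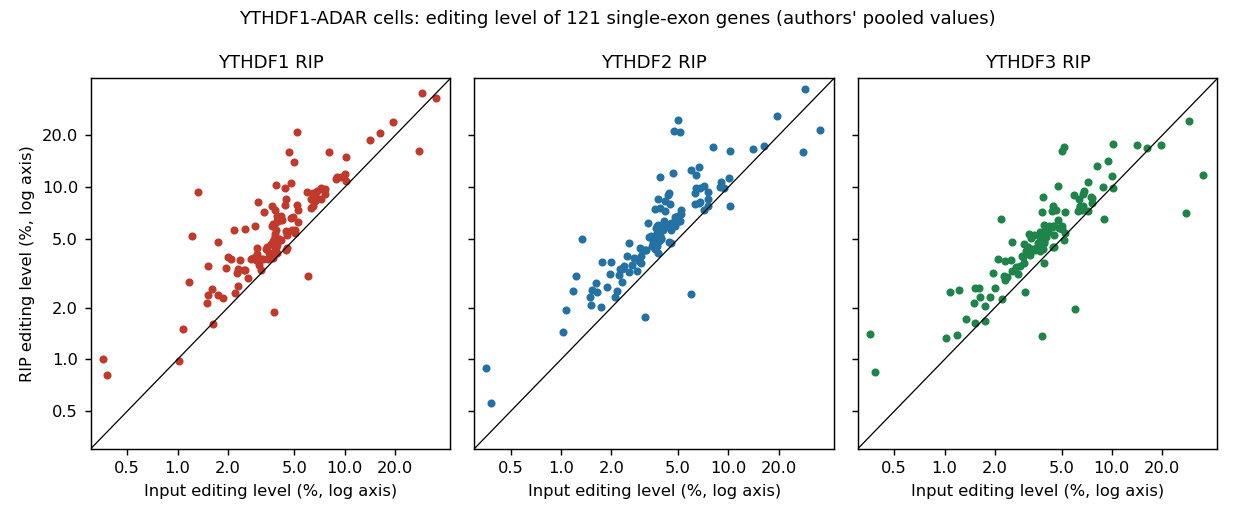
Editing level in percent of single-exon genes in YTHDF1-ADAR cells by the authors' deposited table, 1 point per gene, RIP on the vertical axis against input on the horizontal (log axes), with the line of equal level. Most of the 121 genes lie above the line, with medians of 5.58% in YTHDF1 RIP and 3.88% in input.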

How the data were processed

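The authors aligned reads with STAR 2.7.7 and made gene counts with featureCounts 2.0.1 on GRCh38, per the submitters' processing notes and the file headers. Per the file headers, a read was counted for every gene it overlapped and at every place it mapped to, and strand was not used. The authors' deposited DESeq2 table gave the biotypes, and its signal (mean scaled count), log2 fold changes and p-values were not used, since the libraries behind them are not stated. The authors' deposited editing tables hold, per gene and arm, the count of edited sites, a natural log odds ratio, an adjusted p-value and a score. The deposited scores and natural log odds ratios matched within 1e-06 when score over sites was read as a fraction, and genes without that match gave no level.

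Counts were fitted with edgeR 4.0.16 (R 4.3.3, limma 3.58.1), using filterByExpr, TMM scaling, 12 groups of 3 libraries and a quasi-likelihood test with Benjamini-Hochberg adjustment over 31849 genes at 0.05. Library depth was 12.5 to 37.5 M counts (M, 1e6). A single row that names no human gene was left out, and 0 count columns were unused. Replicates differed beyond sampling noise in all 36 pairs (chi-square per degree of freedom 9.54 to 239.9), so no library was taken as deposited a second time. The fit of YTHDF2 RIP over input, mean over lines, was tested on simulated data. These had the same spread for all genes and few changed genes, unlike the libraries here. The run therefore checks the code and not the calls made here. Replicate numbers were taken to pair libraries where all 3 same-numbered pairs of the groups compared correlated above 0.1 in their deviations from the group means, which held for YTHDF2 RIP and YTHDF3 RIP of YTHDF1-ADAR cells (0.23, 0.14 and 0.42). The main fit had no replicate block, there included, and a fit with the block was run as an alternative. Of the 207 single-exon genes, 184 took their symbol from the authors' table and 22 from a reference list of gene names. Tables and figures used Python 3.11.15, pandas 2.3.3, numpy 2.4.6, scipy 1.17.1 and matplotlib 3.10.9.

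The genes and lists were chosen with earlier results of these data known. Named genes with a symbol were the 10 of highest input CPM and, at a mean log2 CPM of at least 3, the called genes with the 8 highest and 8 lowest changes in RIP over input that kept 1 direction, the 5 of each in comparisons between RIPs or inputs, the 5 smallest p of each interaction, the 5 with most sites per line, and a fixed list that includes ADO, RAP2B, PURB, CEBPB, DNAJC30 and KTI12. Not all genes that the rule names are reported here. Other genes named beside them were chosen after their values were seen. Alternatives were other scalings, other filters, DESeq2 1.42.0, a replicate block, single libraries left out, YTHDF1 RIP of the YTHDF2-ADAR and YTHDF3-ADAR lines left out, and subsets of the genes.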

Additional observations from a re-analysis of the deposited data

Results flagged for a closer look

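The change of YTHDF1 RIP over input differed between the 3 lines in 169 of the 207 single-exon genes, where 63.7% of all 31849 genes tested did, by edgeR's quasi-likelihood test of the interaction with Benjamini-Hochberg adjustment. The 5 smallest adjusted p-values were those of ADO (2.71e-16), RAP2B (4.44e-16), ZXDB (6.39e-15), C6orf120 (6.39e-15) and FUT4 (1.04e-14). Each was marked because the same contrast gave different effects in different lines: all 5 rose in YTHDF1-ADAR cells and fell in both of the other lines. In the YTHDF2-ADAR and YTHDF3-ADAR lines this RIP consists of the 6 libraries with low depth, much small nucleolar RNA and high olfactory receptor counts, and the part of these in the interaction was not tested.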

How the results depend on the processing

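The call counts of single-exon genes stayed within 1.5 times under other scalings, filters and DESeq2, except in the comparisons given here. Scaled by total counts, 84 passed in YTHDF2 RIP of YTHDF3-ADAR cells, against 52 with TMM. With no filter on low counts, 2 and 3 genes passed the difference between lines of YTHDF2 RIP and YTHDF3 RIP, against 0 for each. Of 54 pairs of libraries with the same number in a line, 9 correlated above 0.1 (median 0.0032, -0.39 to 0.42), as did 2 of 9 pairs of inputs between lines. All 3 pairs did so for YTHDF2 RIP and YTHDF3 RIP of YTHDF1-ADAR cells, where 60 genes were higher and 17 lower with a replicate block, against 61 and 18 without it, and no gene named in that comparison changed its call. Between inputs of YTHDF1-ADAR and YTHDF2-ADAR, YTHDF1-ADAR and YTHDF3-ADAR, and YTHDF2-ADAR and YTHDF3-ADAR cells, a block of line and number could not be used, since such blocks lie within lines. A block of the number alone, chosen after seeing the data, gave 37, 27 and 16 genes, against 35, 24 and 15 without it. Leaving out single libraries gave 14 to 61, 7 to 34 and 9 to 10 in these 3 comparisons, 32 to 66 in YTHDF2 RIP of YTHDF2-ADAR cells (68 with all), 22 to 56 in that of YTHDF3-ADAR cells (52), and 46 to 79 between YTHDF2 RIP and YTHDF3 RIP of YTHDF1-ADAR cells (79). It gave 176 to 179 for YTHDF1 RIP of YTHDF1-ADAR cells (182). For the YTHDF1, YTHDF2 and YTHDF3 RIP means over the 3 lines it gave 131 to 149, 113 to 133 and 103 to 122 (133, 126 and 112). Some directions turned. Under 1 kb, the single-exon less the multi-exon median in YTHDF1-ADAR cells was -0.046 in YTHDF2 RIP and -0.20 in YTHDF3 RIP for genes that overlap no other gene, against 0.49 and 0.90 for all. In the YTHDF3 RIP mean, ADO had -0.19, but 0.085 with total counts and 0.061 with upper quartiles, and HNRNPA0 had -0.26, but 0.016 with total counts. YY2 in YTHDF1 RIP of YTHDF2-ADAR cells had 0.42, and from -0.059 (without input 1) to 0.41 with 1 library left out. The cause of these changes was not tested, except that fits with a library left out have fewer samples. Counts without strand limit every gene that overlaps another.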
